A study of Mus musculus with 65 samples.

Results

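The step from middle to old age was examined in the spinal cord of 20 C57BL/6 mice fed ad libitum (AL), out of 65 mice in the whole series. The older group held 10 AL mice of 704 to 743 days (24 months), and the younger group 10 AL mice of 476 to 499 days (16 months), each with 5 males and 5 females. All 20 received regular feed without restriction until they were killed, carried no engineered allele in their labels, and were chosen by the age and diet that the labels give. For 1 comparison, mice on caloric restriction (CR), a ration reduced in steps in young adulthood and then kept low, were added, with 7 mice of 24 months (673 to 743 days) and 10 of 16 months (472 to 499 days). Each mouse gave 1 array, a filter (the B part of the NIA mouse cDNA collection), on which radiolabelled cDNA was hybridized to 8448 spotted clones, here called features. The values are Z scores within an array, in which the mean over its features is 0 and their SD is 1. Differences are therefore in Z units, are set against the rest of that array, and are not folds. The number of arrays limits the precision.

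The spinal cord carries motor neurons, interneurons and long axon tracts, and a large share of its tissue is white matter made by oligodendrocytes. In ageing nervous tissue, background knowledge leads one to look at microglia and complement, myelin, mitochondrial energy metabolism, protein turnover by the ubiquitin-proteasome system, and genome maintenance. Among the last, the Werner helicase unwinds DNA at stalled forks and telomeres, and its loss in humans causes a syndrome of early ageing. In a whole-tissue array, fewer cells of a type and less RNA per cell cannot be told apart.

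Labels and arrays were checked first. Of the features, 4875 carried 1 gene symbol, covering 4209 genes. Of the neuronal markers, neurofilament light chain (Nefl) had mean Z scores of 1.10 at 24 months and 1.12 at 16 months at its feature of higher signal. The features of Calb1, also on the neuronal list, lay below 0, with means from -0.557 to -0.0430 at 24 months. The mean over the neuronal list had a median of 0.0878 at 24 months and 0.111 at 16 months. The myelin list was measured through 6 genes only (Car2, Gsn, Gpr37, Bcas1, Tmem98 and Cryab). Correlations among the 20 arrays ran from 0.931 to 0.989. Xist, the RNA of the inactive X chromosome, did not separate the sexes on this filter. It ran from -0.870 to -0.530 in females and from -1.05 to -0.640 in males. Uty, a gene of the Y chromosome, did not separate them either, with -2.17 to -1.14 in females and -2.16 to -1.09 in males. The sex labels were thus not checked by these genes. The description label of 1 array, the 24-month male replicate 2, belonged to a juvenile. It was kept where its title and characteristics put it. Its correlation with the juvenile array of that description, which is of the other run, was 0.960, against a median of 0.957 with the AL arrays of that run, so the label was not settled by it.

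The arrays fell into 2 runs, recognised from their numbers (22 to 43 with 66 and 67, against the rest), which the labels do not name. The first principal component of the 20 arrays took up 45.4% of the variance. The runs accounted for 95.2% of this component and the ages for 7.08%. First-run scores lay between -12.9 and -7.55, second-run scores between 6.34 and 16.6. The second run held 6 of the 10 mice of 24 months and 4 of the 10 of 16 months, with the sexes in equal numbers at each age. In limma 2689 features (31.8%) differed between the runs at an adjusted p under 0.05. The run was therefore a term in the main limma tests of the step, and some alternative fits left it out. The plot of the named differences shows each within the runs. After the run was subtracted, 1.52% of the leading component lay between the ages.

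**Figure D1:**
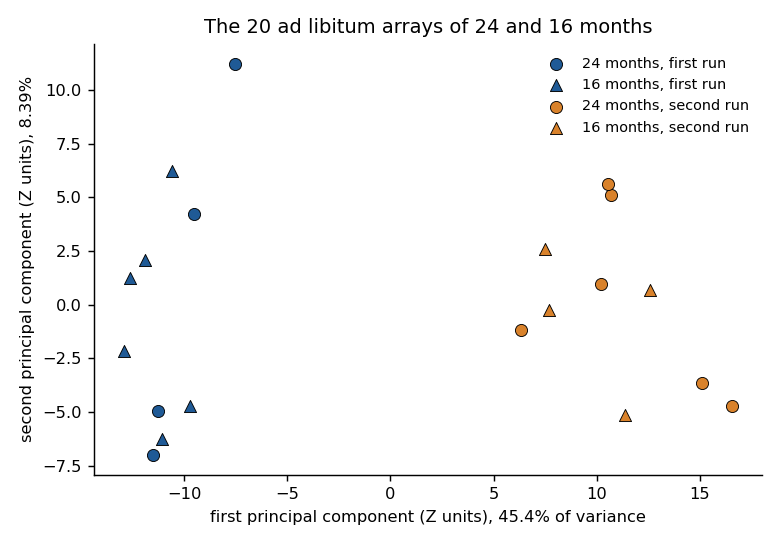
Scores of the 20 AL arrays on the first (x axis) and second (y axis) principal components, in Z units, with circles for 24 months, triangles for 16 months and colours for the 2 runs. The runs lie apart on the x axis, at or below -7.55 and at or above 6.34, and both ages are found in each cloud.

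No gene passed the test for the step from 16 to 24 months. Of 8448 features, 0 (0%) had an adjusted p under 0.05 in limma, with age, sex and run in the fit and the sexes weighted equally, and the smallest adjusted p was 0.268. An unadjusted p under 0.05 was found for 546 features (6.46%), of which 282 (3.34%) were higher and 264 (3.12%) lower at 24 months. In 0 features (0%) did all 24-month mice lie above all 16-month mice, and in 0 (0%) did they all lie below. The median difference was -0.000417, and the SD of all differences was 0.0672.

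The precision of these differences can be given. The median SE was 0.0472 and the median half-width of the 95% interval 0.0986. For 81.8% of features the whole 95% interval lay within 0.2 Z units of 0. Differences above 0.2 in size were measured for 101 features (1.20%), and 7 exceeded 0.5. All 7 had a mean Z score below -2, as had 237 features in all, which lie in the long lower tail of the signal. For most clones, a step as large as 0.2 therefore lay outside the 95% interval.

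The 12 named features per direction with the smallest p were taken among those with the same sign in both runs and both sexes, a condition that 42% of all features met. Their direction in each run and sex is thus part of the choice and shows nothing further. Of these 24, Ephx1, the microsomal epoxide hydrolase that detoxifies reactive epoxides, had the smallest p. Its Z scores ran from -1.58 over a median of -1.37 to -1.04 at 24 months, and from -1.38 over -1.08 to -0.950 at 16 months. The groups overlapped, with 4 of 10 old mice below all mice of 16 months. The difference was -0.164 (SE 0.0305, adjusted p = 0.268), with -0.170 in the first run and -0.158 in the second. Ephx1 was also among the features that differed between the runs, by -0.261 (second minus first, adjusted p = 7.59e-07).

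For Ephx1 the sexes were also examined apart. The male scores were -1.28, -1.58, -1.57, -1.39 and -1.58 at 24 months, and -1.0, -1.28, -1.20, -0.950 and -1.08 at 16 months. The female scores were -1.07, -1.37, -1.23, -1.04 and -1.37 at 24 months, and -1.08, -1.31, -1.38, -1.0 and -1.04 at 16 months. The old males lay low, with 4 of 5 below every male of 16 months, and the females of both ages covered the same range. The run-adjusted step was -0.326 (SE 0.0427) in males and -0.00175 (SE 0.0427) in females. This difference of -0.324 (SE 0.0598) also had the smallest p of all sex differences, and it did not pass the test (adjusted p = 0.238).

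Wrn, the Werner syndrome helicase, had the largest difference of the 12 lower features. Its Z scores were -0.210, 0.140 and 0.25 (lowest, median and highest) at 24 months and 0.25, 0.300 and 0.330 at 16 months. All 10 old mice lay below the 16-month mean and 9 of 10 below the lowest mouse of 16 months, and the single very low value was that of 24-month female replicate 5. The difference was -0.172 (SE 0.0439, 95% interval -0.264 to -0.0804, adjusted p = 0.761). In the first run the values were 0.050 to 0.25 at 24 months (4 mice) and 0.25 to 0.330 at 16 months (6 mice), and in the second run -0.210 to 0.170 (6 mice) and 0.25 to 0.330 (4 mice). The 2 ages touched at 0.25 in the first run and were apart in the second. Without 24-month female replicate 5 the difference was -0.143. CR mice had 0.050, 0.210 and 0.280 at 24 months, and -0.120, 0.225 and 0.270 at 16 months, a step of 0.00748 (SE 0.0512). In a limma fit of both diets, the AL step minus the CR step was -0.188 (SE 0.0688) and did not pass (adjusted p = 0.202).

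The remaining lower features among the 24 were Hnrnpr, Atxn2l, Fbxl7, Olfm1, Car2, Mob4, Exoc3l2, Sypl, Tacc3 and Pqbp1. Hnrnpr, an RNA-binding protein of the nucleus, had -0.460, -0.175 and -0.0100 (lowest, median and highest) at 24 months and -0.130, -0.050 and 0.0100 at 16 months, a difference of -0.168 (SE 0.0407). Atxn2l, an ataxin 2 relative that binds RNA in stress granules, had -0.570, -0.325 and -0.070 against -0.230, -0.175 and -0.0200, a difference of -0.165 (SE 0.0475). In both genes most old mice lay below the whole younger group, 7 of 10 for Hnrnpr and 9 of 10 for Atxn2l. Fbxl7, an F-box subunit that selects substrates for a ubiquitin ligase, differed by -0.128 (SE 0.0337), with 7 of 10 old mice below the younger group. Olfm1, a secreted glycoprotein of neurons, differed by -0.128 (SE 0.0344). It was also among the features that differed between the runs (adjusted p = 0.000109), as was Fbxl7 (adjusted p = 0.0394).

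Car2, the carbonic anhydrase of oligodendrocytes, had -0.340, -0.130 and 0.110 at 24 months and -0.150, 0.0400 and 0.160 at 16 months. The difference was -0.132 (SE 0.0391), with 9 of 10 old mice below the younger mean. Male scores were -0.120, -0.170, -0.120, -0.340 and -0.200 at 24 months, and 0.070, 0.0200, -0.0400, 0.160 and 0.110 at 16 months, so the males of the 2 ages were apart. The females overlapped, from -0.170 to 0.110 at 24 months and from -0.150 to 0.070 at 16 months. The step was -0.235 in males and -0.0291 in females, a sex difference of -0.206 (SE 0.0766) that did not pass its test (adjusted p = 1.00). The 5 remaining lower features were Mob4 (-0.159), a subunit of the STRIPAK phosphatase complex, Exoc3l2 (-0.155), a relative of an exocyst subunit, Sypl (-0.132), a synaptophysin-like vesicle protein, Tacc3 (-0.120), a protein of the mitotic spindle, and Pqbp1 (-0.117), a polyglutamine-binding splicing factor. For every lower feature except Ephx1 the adjusted p was 0.761.

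Among the 12 higher features, Vps13d, a lipid transfer protein of mitochondrial and peroxisomal contact sites, had scores of -0.270, -0.195 and -0.0600 at 24 months and -0.490, -0.310 and -0.260 at 16 months, and 8 of 10 old mice lay above the whole younger group. The difference was 0.156 (SE 0.0399, adjusted p = 0.761), with 0.208 in the first run and 0.104 in the second, and the CR step was -0.0201 (SE 0.0481). The AL step minus the CR step was 0.179 (SE 0.0646) and did not pass its limma test (adjusted p = 0.192). Suco, a membrane protein of the endoplasmic reticulum with a role in bone formation, differed by 0.120 (SE 0.0381), and all 10 old mice lay above the 16-month mean. Nmral1, a redox-sensing NADPH-binding protein, differed by 0.119 (SE 0.0349), with 9 of 10 old mice above that mean. It was also among the features that differed between the runs, by 0.151 (second minus first, adjusted p = 0.00186), which is more than its age difference.

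Lifr, the receptor for leukemia inhibitory factor, had -1.61, -1.45 and -1.28 at 24 months and -1.78, -1.62 and -1.44 at 16 months, a difference of 0.160 (SE 0.0518). Gpc6, a heparan sulfate proteoglycan of the cell surface, differed by 0.150 (SE 0.0466), Pik3r3, a regulatory subunit of phosphoinositide 3-kinase, by 0.138 (SE 0.0443), and Ephb6, an Eph receptor without kinase activity, by 0.118 (SE 0.0398). Fbxo30, an F-box protein, differed by 0.142 (SE 0.0470), and Tspan31, a tetraspanin, by 0.116 (SE 0.0386). The groups overlapped in each of these 6 genes, and the number of old mice above the whole younger group ranged from 2 of 10 for Ephb6 to 6 of 10 for Gpc6, where 2 of 10 also lay below it. Ephb6 also differed between the runs, by 0.1625 (second minus first, adjusted p = 0.0031), more than its age difference.

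The largest differences came from clones of very low signal. Usp7, a deubiquitinating enzyme of the p53 and MDM2 pathway, had -2.92, -2.36 and -2.03 at 24 months and -4.67, -3.41 and -2.19 at 16 months. The younger mice were spread widely and 3 of 10 old mice lay above them all. The difference was 1.03 (SE 0.25, adjusted p = 0.761), with 0.578 in the first run and 1.48 in the second. Rab33b, a Golgi GTPase linked to autophagy, had -2.29, -2.03 and -1.60 against -2.96, -2.66 and -1.69, a difference of 0.463 (SE 0.151). Ssbp1, the single-stranded DNA-binding protein of mitochondria, had -2.26, -2.03 and -1.75 against -2.55, -2.35 and -2.09, and 8 of 10 old mice lay above the whole younger group. Its difference was 0.302 (SE 0.0748), and CR mice showed a step of 0.142 (SE 0.0865). The steps of the 2 diets did not differ in the limma test (0.156, SE 0.116, adjusted p = 0.647).

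**Figure D2:**
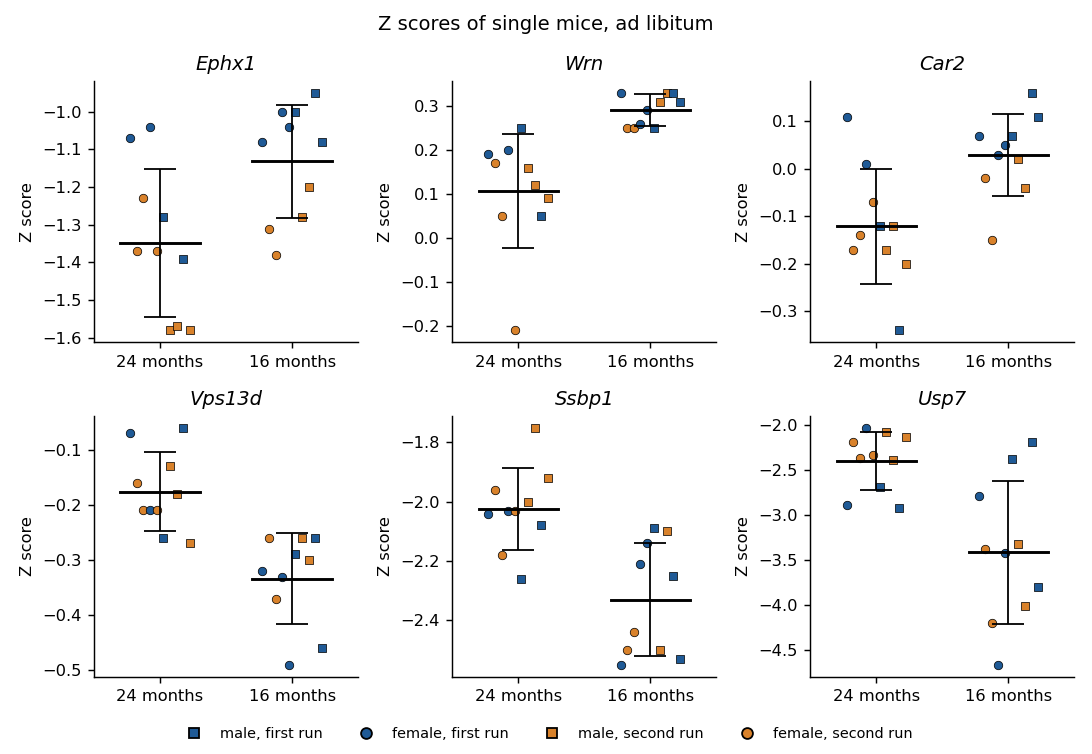
Z scores (y axis) of 6 of the 24 named features in AL mice of 24 and 16 months (x axis), 10 mice per age. Each point is 1 mouse, with squares for males, circles for females and colours for the runs, and bars show the mean ± SD. Wrn lies at 0.107 ± 0.129 at 24 months and 0.291 ± 0.0354 at 16 months, and the low point of -0.210 is a single old female.

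**Figure D3:**
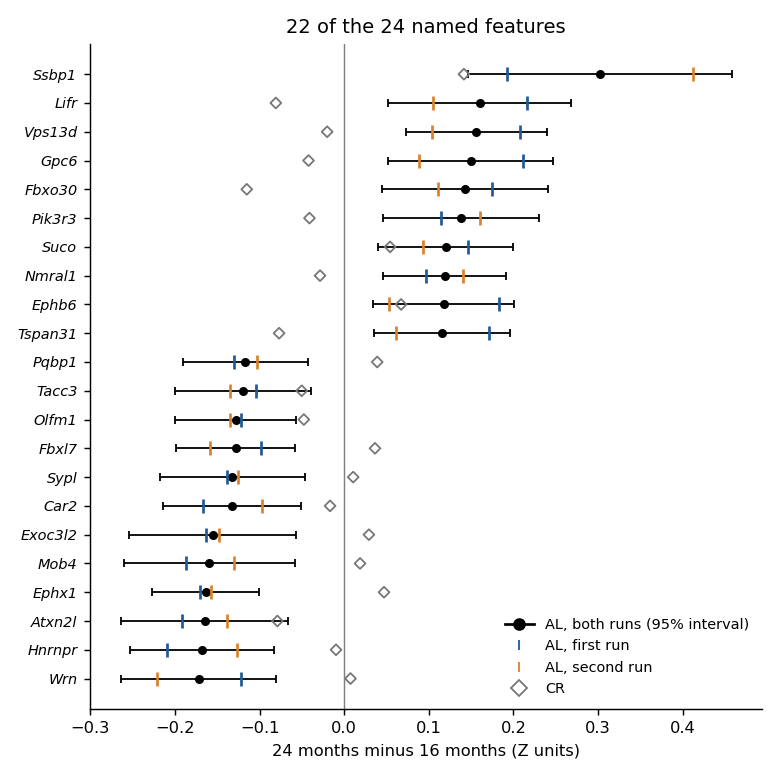
Difference between 24 and 16 months in Z units (x axis) for 22 of the 24 named features (y axis), leaving out Usp7 and Rab33b, whose differences of 1.03 and 0.463 have wide intervals. Black points with bars are AL mice with the 95% interval, ticks are the 2 runs, and open diamonds are CR mice. The intervals are not adjusted for the 8448 features, and none of the 22 had an adjusted p below 0.268.

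The direction of the differences varied with the position of a clone in the feature order. The mean signal repeated along the feature number with a period of 22 positions of 384 features each. At position 21 an unadjusted p under 0.05 was found for 51 features (13.3%), of which 50 were higher at 24 months, with a median difference of 0.0362. At position 8 the median was -0.0258 and 3 of 28 such features were higher. Of the 12 higher named features, Ssbp1, Gpc6, Pik3r3, Lifr, Rab33b and Fbxo30 lay at position 21, and of the lower ones Fbxl7 and Olfm1 lay at position 8 and Wrn and Atxn2l at position 4, where the median was -0.0233. Each array was also centred on its 22 positions, after which the differences were of the same sign for all 24 and 0 features passed. The position medians were small beside the named differences, of which the smallest was 0.116 (Tspan31), so a kept sign was to be foreseen. The part of the position in these genes' differences was not tested.

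The steps measured in the 2 runs had little in common across all features. The Pearson correlation of the first-run and second-run steps was 0.120 (Spearman 0.145) over 8448 features, and 54.4% had the same sign. Steps were also taken in rounds, sets of consecutive arrays with only 2 old and 2 younger mice each. They correlated at -0.328 between rounds 1 and 4 (first run) and at 0.0361 between rounds 2 and 3 (second run). The male and the female steps correlated at 0.203 (Spearman 0.294), with 60.8% of the same sign. These are descriptions across features, which share arrays and are not independent. A test of the difference between the runs called 0 features (0%), with 210 (2.49%) at an unadjusted p under 0.05 and a smallest adjusted p of 0.999. A test of the difference between the sexes called 0 (0%), with 152 (1.80%) at such a p. After Ephx1 its smallest p values belonged to Cd99l2, a membrane protein related to CD99 (0.448, SE 0.117, adjusted p = 1.00), and Scaf11, a splicing-related factor (0.560, SE 0.158). The median SE of a sex difference was 0.0925, against 0.0472 for the step itself.

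**Figure D4:**
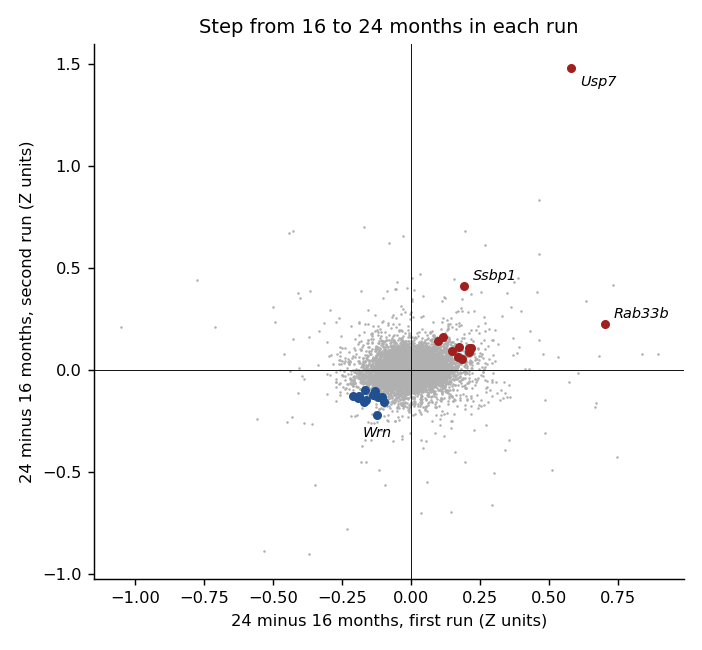
Difference between 24 and 16 months within the first run (x axis) and within the second run (y axis), in Z units, for 8448 features (grey). Named features are red where higher and blue where lower at 24 months, and their equal sign in both runs was a condition of their choice. The cloud is nearly round, with a correlation of 0.120.

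The markers of cell types gave no call. The only Schwann cell feature, Pmp22, a protein of peripheral myelin, differed by -0.0704 (SE 0.111), with -0.249 in the first run and 0.108 in the second. Of 10 microglia and macrophage features, 8 were above 0, with a median of 0.0335, against 49.6% of all features above 0 and a median of -0.000417. C1qb, a chain of complement C1q, differed by 0.070 (SE 0.0323, unadjusted p = 0.0429), with 0.129 in the first run and 0.0108 in the second. It also differed between the runs, by 0.16 (second minus first, limma adjusted p = 0.00053), more than its age difference. Fcer1g, the common gamma chain of Fc receptors, differed by 0.151 (SE 0.0996), C1qa by 0.0288, C1qc by 0.0317, and the 2 features of the lysosomal protease Ctsd by 0.0492 and 0.0792. The mean over the list ran from -0.0370 to 0.136 at 24 months and from -0.142 to 0.154 at 16 months, so the older range lay within the younger.

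Of 6 myelin features, 1 was above 0 and the median was -0.0452. An unadjusted p under 0.05 in limma was found for 2 of the 6 (33.3%), both lower, against 6.46% of all features. Beside Car2, Gsn, which encodes gelsolin, a protein that cuts actin filaments, had 0.0200, 0.260 and 0.390 at 24 months and 0.240, 0.340 and 0.410 at 16 months, a difference of -0.105 (SE 0.0391, unadjusted p = 0.0148). The list mean was 0.212 to 0.407 at 24 months and 0.308 to 0.420 at 16 months. Tmem98 (-0.0187), Bcas1 (-0.0292) and Cryab (0.0258) differed by less than their errors. Of 11 astrocyte features, 8 were above 0 (median 0.0267), led by the glutamate transporter Slc1a3 (0.0596 and 0.0129 at its 2 features) and clusterin, Clu (0.0779). The first of these Slc1a3 features also differed between the runs, by 0.352 (second minus first, limma adjusted p = 1.43e-07). Clu did so by 0.355 (adjusted p = 7.06e-05), and both run differences were larger than the age differences. Of 9 neuronal features 4 were above 0 (median -0.00458, with 0.0308 in the first run and -0.0575 in the second). Uchl1, the neuronal ubiquitin hydrolase, differed by -0.0792 (SE 0.0328, unadjusted p = 0.0259). It also differed between the runs, by -0.0992 (second minus first, limma adjusted p = 0.0251). Blood and erythroid features were above 0 in 16 of 23 (median 0.0179, with -0.0375 in the first run and 0.0892 in the second), with list means of 0.265 to 0.824 at 24 months and 0.397 to 0.562 at 16 months. The meninges and matrix list had 19 of 30 above 0 (median 0.0129, with -0.011 in the first run and 0.0129 in the second). Its 3 features with an unadjusted p under 0.05 in limma (10% of the list, against 6.46% of all features) were all lower. The muscle list had 2 of 3 above 0 (median 0.050) and the endothelial list 2 of 11 (median -0.0287).

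In both lists of energy metabolism most differences were below 0, without a call, and the shares with an unadjusted p under 0.05 were near the 6.46% of all features, at 7.69% for glycolysis and the TCA cycle and 5.77% for oxidative phosphorylation. Of 26 features of glycolysis and the TCA cycle, 6 were above 0 (median -0.0444), and 2 had an unadjusted p under 0.05, both lower. These were the glycolytic enzyme Tpi1 (-0.133, SE 0.0569) and Dlat, the acetyltransferase of the pyruvate dehydrogenase complex (-0.116, SE 0.0486, and -0.155, SE 0.0944, at its 2 features). Tpi1 had -0.150, 0.170 and 0.460 at 24 months and 0.030, 0.370 and 0.520 at 16 months, so the ages overlapped. Tpi1 also differed between the runs, by -0.225 (second minus first, limma adjusted p = 0.00397). The 2 features of Dlat did so as well, by -0.184 and -0.49 (adjusted p = 0.00565 and 0.000331). The list mean was -0.139 to -0.0238 at 24 months and -0.0812 to -0.00154 at 16 months. Of 52 oxidative phosphorylation features, 15 were above 0 (median -0.0185), and the 3 with such a p were lower, namely the complex III core protein Uqcrc2 (-0.108, and -0.141 at its other feature) and the ATP synthase subunits Atp5md (-0.118, and -0.00458 at its other feature, of higher signal) and Atp5g2 (-0.0733). Both Atp5md features also differed between the runs, by -0.205 and -0.167 (second minus first, limma adjusted p = 0.00645 and 0.00193). The oxidative phosphorylation median was -0.0429 within the first run and -0.00792 within the second, and -0.0430 in males and 0.00617 in females. The cytosolic ribosome had 55 of 99 features above 0 (median 0.0117) and the mitochondrial ribosome 11 of 26 (median -0.00958).

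Genes of protein turnover, genome maintenance and developmental signalling, which the study examined as pathways, also gave 0 calls. In the ubiquitin-proteasome list 42 of 109 features were above 0 (median -0.00958), 4 with an unadjusted p under 0.05 were higher and 8 lower, or 11.0% of the list against 6.46% of all features. The higher ones were Usp7, Fbxo30, the ubiquitin-conjugating enzyme Ube2j2 (0.140) and the deubiquitinase Usp32 (0.106, and 0.0200 at its other feature), and the lower ones included Fbxl7, Usp34 (-0.133), the conjugating enzyme Ube2q1 (-0.133) and the proteasome lid subunit Psmd11 (-0.107). Of 17 features of Werner helicase partners and telomere genes, 6 were above 0 (median -0.0242). An unadjusted p under 0.05 was found for 17.65% of them, against 6.46% of all features. Beside Wrn, the telomeric poly-ADP-ribose polymerase tankyrase, Tnks, was at -0.0717 (SE 0.0308, unadjusted p = 0.0310) and Rpa3, a subunit of the single-strand binding protein RPA, at 0.113 (unadjusted p = 0.0403). The shelterin genes did not share a direction, with Tinf2 at -0.111, Pot1a at -0.0867, Terf1 at -0.0242 and Terf2 at 0.0308. The Wnt list had 18 of 29 features above 0 (median 0.00958) and the Notch list 4 of 10 (median -0.0125), with 0 at an unadjusted p under 0.05 in either. Of 10 features of genes that the study names, picked there on data that include these mice, 3 were above 0 (median -0.0533). An unadjusted p under 0.05 was found for 20% of them, against 6.46% of all features. Uchl1 and Wrn, the 2 with such a p, are given above, and the DNA end-binding protein Xrcc6 (-0.0754), the chaperone Hsp90aa1 (-0.0742), Parp1 (-0.0512) and the Notch ligand Jag1 (-0.0554) differed by less than 2 SE.

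The selection rule of the study, a mean Z score above 0, a difference of at least 1.5 SDs of all differences and an unadjusted p under 0.05, was then applied without the run. The study's last step, an analysis of variance over ages, sexes and diets, was not applied here. The rule selected 72 features (0.852%), 41 higher and 31 lower at 24 months, and 34 of them carried 1 symbol. After Benjamini-Hochberg adjustment 0 of them passed. Within the first run alone the rule selected 96 features, 84 higher and 12 lower, and within the second 40, 11 higher and 29 lower, with 0 features in both selections. With the run effect subtracted it selected 189, 110 higher and 79 lower, of which 66 were among the 72. Each of the 72 nevertheless had the same sign in both runs, and 70 had an unadjusted p under 0.05 with the run in the fit, although these values come from the same mice that chose them. Named genes among the 72 included Wrn, Sypl, the cofilin phosphatase Ssh1 (-0.143), the kinase Wnk4 (-0.154, and -0.0758 at its other feature), the extracellular matrix protein matrilin 2, Matn2 (-0.131), the mitochondrial kinase Pink1 (0.136, with 0.258 in the first run and 0.0142 in the second) and the mitochondrial fission protein Fis1 (0.101).

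Residuals were larger on average at 24 months than at 16 months, with a permutation p under 0.05 only in the fit with the run and all arrays. Mice were not measured on repeat arrays, so differences between mice cannot be told apart from differences between arrays. The median size of a mouse's residuals over all features, after age, sex and run, averaged 0.0692 ± 0.0129 in the older mice and 0.0582 ± 0.00992 in the younger (SD, n = 10 each). They differed by 0.0110, and 8 of 10 old mice lay above the median of the younger ones (two-sided permutation test with 100000 resamples, p = 0.0488). Without the run in the fit the difference was 0.00890 (permutation p = 0.240). Without the 4 arrays 63, 64, 66 and 67, in which age and run coincide, it was 0.00758 (permutation p = 0.266, n = 8 each).

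The step was then compared between the diets, in a fit of the 37 AL and CR mice of both ages. The difference between the AL step and the CR step passed the test for 62 of 8448 features (0.734%), with 1078 (12.8%) at an unadjusted p under 0.05. All 62 ran the same way, with an AL step above 0 and a CR step below 0, and 14 of them carried 1 symbol. The median difference was 0.289, the median AL step 0.115 and the median CR step -0.167. Neither step passed on its own. The CR step had 0 called features (0%) and 1424 (16.9%) at an unadjusted p under 0.05. Residuals of the 62 features moved together across the 37 mice, with a median pairwise correlation of 0.451, and thus they cannot be counted as independent results. Of the 62, 32 (51.6%) lay at positions 1, 2, 19 and 21 in the feature order, which hold 18.2% of all features and were singled out after their values were seen. Centring on the positions gave 69 calls, of which 46 were among the 62.

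The 6 named genes with the smallest p were Zfp882, Myof, Csf3r, Nr2e1, Pdxdc1 and Ypel1. Zfp882, a zinc finger protein gene, had 0.530, 0.640 and 0.760 (lowest, median and highest) in AL mice of 24 months and 0.460, 0.555 and 0.650 in AL mice of 16 months. In CR mice it had 0.310, 0.420 and 0.650 at 24 months and 0.560, 0.635 and 0.690 at 16 months. Old CR mice were the lowest and most spread, and all 4 groups overlapped. The difference of the steps was 0.255 (SE 0.0540, adjusted p = 0.0272).

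Myof, a ferlin of membrane repair, had -0.25, -0.00500 and 0.260 in AL mice of 24 months, and -0.360, -0.175 and 0.0800 in AL mice of 16 months. In CR mice it had -0.600, -0.190 and 0.070 at 24 months and -0.160, -0.0850 and 0.0600 at 16 months. The difference was 0.330 (SE 0.0701, adjusted p = 0.0272). Csf3r, the receptor for granulocyte colony-stimulating factor, had an AL step of 0.131 and a CR step of -0.186 (difference 0.318, SE 0.0679, adjusted p = 0.0272). Nr2e1, an orphan nuclear receptor of neural stem cells, had steps of 0.0680 and -0.179 (difference 0.247, SE 0.0545, adjusted p = 0.0323), Pdxdc1, a pyridoxal-dependent decarboxylase relative, 0.113 and -0.157 (difference 0.270, SE 0.0617, adjusted p = 0.0327), and Ypel1, a yippee-like zinc-binding protein, 0.106 and -0.194 (difference 0.300, SE 0.0684, adjusted p = 0.0327). Among the other 8, Tspan31 (0.119 and -0.0769, adjusted p = 0.0489) was also 1 of the 12 higher features of the AL step.

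The count of 62 rested on the mice and the arrays in the fit. It was 0 within the first run and 2 within the second, neither of them among the 62, and 14 without the run. With all adult and juvenile groups in 1 fit it was 0, both with 62 arrays (without arrays 31 to 33, smallest adjusted p = 0.0697) and with all 65 (smallest adjusted p = 0.838). Leaving out 1 mouse gave 6 to 160 calls, and 25 of 37 such counts were more than 1.5 times off, with 6 without 24-month CR female replicate 2, 7 without 24-month CR male replicate 1, 8 without 24-month CR female replicate 4, 11 without 24-month AL male replicate 2, whose description label is in doubt, and 160 without 24-month CR female replicate 3. The second run held 6 of 10 old and 4 of 10 younger AL mice, and 3 of 7 old and 3 of 10 younger CR mice. The differences of the 6 genes were of 1 sign within both runs, at 0.322 to 0.428 in the first and 0.107 to 0.198 in the second. These genes were chosen by the smallest p of this difference in the same mice, so a shared sign is largely part of the choice.

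**Figure D5:**
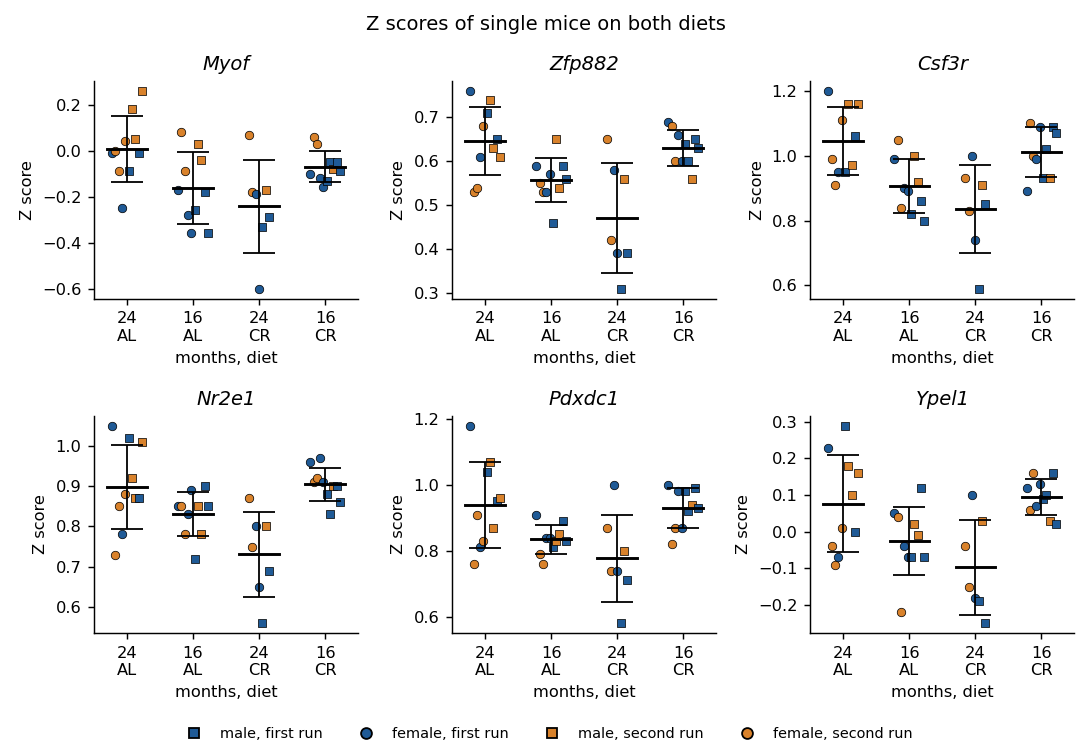
Z scores (y axis) of the 6 named genes whose step differed between the diets, by age in months and diet (x axis), with 10 mice per group except 7 CR mice of 24 months. Points are single mice, with squares for males, circles for females and colours for the runs, and bars show the mean ± SD. In each gene the mean of the old mice is above that of the younger mice under AL and below it under CR.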

How the data were processed

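The authors extracted imaging-screen intensities with ArrayPro and transformed them to Z scores in their DIANE software, and the deposited values are these scores (65 columns, mean 0 and SD 1 in each, 2 decimals, no missing value, 0 columns of no sample). How background was handled and which log base was used is not given in the sources used here. The scores carry no count or depth. Features were named by the platform annotation, matched to RefSeq by Entrez ID.

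The test was limma 3.58.1 in R 4.3.3 on the 20 AL arrays, with 4 group means of age and sex, and the run as a term (15 residual degrees of freedom), and Benjamini-Hochberg adjustment over 8448 features. Features with an adjusted p under 0.05 were called. The difference between diets used 37 arrays. The scripts were tested on simulated data. Named genes were, per direction, the 12 called features of largest difference or, with fewer than 5 calls, the 12 of smallest p with the same sign in both runs and sexes. At most 6 were named for a difference of steps (3 without calls), 2 per gene list, and the measured genes the study names. Other genes named in lists or among selected features were picked after their values were seen. Gene lists (36) were described by counts and medians. The members and lists were chosen with earlier results of these data known. Alternatives changed the run, the arrays, the scaling, the filter, the position and the mice.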

Additional observations from a re-analysis of the deposited data

Results flagged for a closer look

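In 68 groups of 10 mice (24 named features and the genes the study names, at each age, and the size of each mouse's residuals), 2 held a mouse far from the others, and chance flags about 1 in 20 groups. For Wrn, 24-month AL female replicate 5 had a Z score of -0.210, against 0.050 for the nearest mouse. For the Gsk3b feature of higher signal, 24-month AL male replicate 2, the array whose description label is in doubt, had 0.700, against 1.15 for the nearest mouse.

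The step from 16 to 24 months differed between AL and CR mice for 62 features, by the test of the difference itself. For the 6 named genes the AL step minus the CR step was 0.330 for Myof, 0.255 for Zfp882, 0.318 for Csf3r, 0.247 for Nr2e1, 0.270 for Pdxdc1 and 0.300 for Ypel1. The CR group of 24 months had 7 mice, and its 3 males were all of 673 days. The part of age, of the position in the feature order and of single arrays in these differences was not tested beyond the values given above.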

How the results depend on the processing

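The count of 0 called features for the AL step held under 13 alternatives. These used more or fewer arrays, left out the run, ran within a run, blocked on rounds of arrays, filtered, rescaled or weighted. Leaving out each mouse gave 0 to 1 calls, the 1 being feature 16410, which carries no symbol, without 24-month AL male replicate 1 (0.408, adjusted p = 0.0415, against 0.317 and 0.761 with all mice). Features with an unadjusted p under 0.05 ranged from 148 with all 65 arrays and the run to 867 with rounds as a block and without the run. The selection rule of the study gave 72, 40 within the second run and 189 with the run effect subtracted, and leaving out a mouse gave 53 to 109, with 109 without 24-month AL female replicate 3. The sex and the run differences had 0 calls under each alternative run. All 24 named features kept their direction and stayed uncalled in 771 refits. They were chosen in the same mice by the smallest p and by the sign in both runs and sexes, so a kept direction was largely part of the choice. Of 96 list medians under other settings 15 had another sign. The alternatives for the diet difference by quantile, position, 65 arrays and single run, that for the sex difference without 4 arrays, and the subtraction of the run for the study's rule were chosen after seeing the data. The diet difference gave 14 calls without the run, 37 with quantile normalization (36 of the 62), 0 with 62 or 65 arrays and the run, 0 within the first run, 2 within the second, and 6 to 160 without 1 mouse. Beside the 5 mice named with that comparison, it was 15 without 16-month CR female replicate 1, 16 without 16-month AL female replicate 5, 17 without 16-month AL male replicate 1, 19 without 16-month CR male replicate 4, 29 without 16-month AL female replicate 3, 32 without 16-month AL female replicate 4, 33 without 16-month CR male replicate 5, 34 without 16-month AL male replicate 3, 35 without 16-month AL male replicate 5, 36 without 16-month CR male replicate 2 or 24-month AL female replicate 1, 41 without 16-month CR male replicate 1 or 24-month AL male replicate 5, 96 without 24-month CR male replicate 3, 100 without 16-month AL female replicate 2, 103 without 24-month AL female replicate 2, 106 without 16-month AL male replicate 2, 116 without 24-month CR female replicate 1, 122 without 24-month AL female replicate 3, and 127 without 24-month CR male replicate 2. Its 6 named genes kept their direction in 264 refits, of which 222 left out 1 mouse, and were called in 197. These genes were chosen by the smallest p of this difference in the same mice, so the kept direction was again largely part of the choice. The difference in spread was 0.00890 without the run and 0.00758 without arrays 63, 64, 66 and 67, and neither passed. No paired analysis was possible because the labels give no replicate numbers or litters that pair mice across ages. The rounds of consecutive arrays, each with 2 old and 2 younger mice, served as a block in the fit with 867 such features and 0 calls. That fit held no run term. In round 5, arrays 63, 64, 66 and 67, age and run coincide, and its steps correlated with the run effect at 0.896. With 10 mice per age, the 95% interval reached a median of 0.0986 Z units to each side of a feature's difference.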
